A study of Mus musculus with 8 samples.

Results

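The genes described here encode the proteins of the cytosolic ribosome. They were chosen by name: protein-coding rows whose symbol is Rpl or Rps followed by a number, together with Rplp0, Rplp1, Rplp2 and Rpsa. Kinases of the Rps6k group, Rps19bp1, paralogues such as Rpl22l1 and pseudogenes were left out. The rule found 77 genes among the 53700 gene rows of the count table, 31 of the small (40S) and 46 of the large (60S) subunit, and 8 paralogues were kept apart. The rule uses names and no measured value. The RNA came from mouse skin and was recovered with an antibody against GFP from polysomes that carried a GFP tag. All 8 libraries had the genotype AdipoqCreER;R26-NuTRAP and were labelled with tamoxifen, so that the tag depends on a recombinase driven from the adiponectin gene. There were 3 libraries of uninjured skin, 2 of wounded skin whose titles are read as day 3 after wounding, and 3 read as day 7. Mice were 7 to 9 weeks old and in the resting phase of the hair cycle, and each wounded mouse had 4 wounds through the full depth of the skin, made by a punch of 5 mm. Libraries of input RNA, without the pull-down, are not used here. Nothing in the labels says that libraries of a group came from separate animals, so p-values measure the spread between these libraries.

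A ribosome joins a small subunit, which decodes the mRNA, to a large subunit, which forms the peptide bond. Its protein components are made in near-equal numbers, and their mRNAs are among the most abundant of most cells. Most of these mRNAs start with a run of pyrimidines, the terminal oligopyrimidine or TOP motif, through which the mTORC1 kinase and the RNA-binding protein LARP1 set how many of them sit on ribosomes. The NuTRAP reporter is a fusion of GFP to the ribosomal protein L10a. The pull-down therefore recovers ribosome-bound RNA through a tagged copy of one member of the family.

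The libraries held 5308959 to 17751689 counts. Adipocyte markers were present in all of them, with Adipoq (adiponectin) at 1803 to 5404 CPM (counts scaled to an equal library size) and a summed level of 69680 to 155800 CPM over 18 markers. Markers of other cells were present too, and several lists moved between the groups, as the values at the end show. Column names of the table start with a number that differs between all 3 groups and is the same within each, so whatever that number stands for cannot be told apart from the group. In such bulk samples, fewer cells of a type and less RNA per cell cannot be told apart. Library sizes behind the CPM values carry edgeR's TMM factors, and "called" means an adjusted p under 0.05 in edgeR's quasi-likelihood test with Benjamini-Hochberg adjustment over the 18656 genes tested. All 77 members passed the filter on low counts.

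Start-site windows of the members were searched for runs of pyrimidines. Windows of 80 bases, from 60 before to 20 after an annotated start, were read from RefSeq promoters (GRCm38.p6) and were found for 57 of the 77 members. The windows below are those of members whose values the results turn on and of Rps6 as a textbook TOP gene. They are written in the direction of transcription, and capitals mark runs of at least 8 C or T anywhere in the window.
Rps12 (chr10:23787190-23787269, minus strand): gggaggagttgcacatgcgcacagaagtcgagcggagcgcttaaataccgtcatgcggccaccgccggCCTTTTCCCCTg
Rps24, upstream start (chr14:24490618-24490697, plus strand): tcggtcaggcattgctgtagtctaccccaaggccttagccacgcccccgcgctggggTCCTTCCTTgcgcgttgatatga
Rps24, downstream start (chr14:24490693-24490772, plus strand): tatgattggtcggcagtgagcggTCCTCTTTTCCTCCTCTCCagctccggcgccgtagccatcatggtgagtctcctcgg
Rps10 (chr17:27635225-27635304, minus strand): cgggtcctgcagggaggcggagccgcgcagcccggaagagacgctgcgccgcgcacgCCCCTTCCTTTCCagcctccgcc
Rps6 (chr4:86857348-86857427, minus strand): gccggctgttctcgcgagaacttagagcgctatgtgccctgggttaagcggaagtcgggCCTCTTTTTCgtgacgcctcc
Rplp2 (chr7:141447591-141447670, plus strand): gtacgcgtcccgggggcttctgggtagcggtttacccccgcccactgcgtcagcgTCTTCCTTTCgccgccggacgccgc
Rpl41 (chr10:128549149-128549228, minus strand): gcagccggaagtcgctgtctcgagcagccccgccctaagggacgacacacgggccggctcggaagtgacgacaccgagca
Rpl10a, upstream start (chr17:28328411-28328490, plus strand): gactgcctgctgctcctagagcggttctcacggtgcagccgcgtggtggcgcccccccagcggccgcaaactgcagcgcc
Rpl10a, downstream start (chr17:28328505-28328584, plus strand): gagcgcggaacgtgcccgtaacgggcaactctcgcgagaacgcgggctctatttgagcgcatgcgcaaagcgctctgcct

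Such a pyrimidine run lay in the windows of 37 of the 57 members (64.9%), against 34.5% of the 27025 genes with a window. Rps12, Rps24, Rps10, Rps6 and Rplp2 had one. Neither window of Rpl10a held one, nor did that of Rpl41. A gene counts once if any of its windows matched. The motif CTTTC on the transcribed strand was found for 38.6% of members against 12% of all genes, CTTCC for 35.1% against 18.7% and CTTTT for 19.3% against 10.8%. At least 1 of these 3 motifs, which overlap with the pyrimidine runs, was in 64.9% of members and 34.8% of all genes on the transcribed strand, and in 82.5% and 57.8% when either strand counted. The motif CCGGAAG, searched on both strands, was found for 22.8% of members and 5.47% of all genes. TATATAA was in 5.26% and 1.39% and ATGGCGG in 3.51% and 1.07%, both searched on both strands. A match describes letters of these windows only. Neither a run nor its absence shows whether an mRNA starts with a TOP motif.

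In the libraries from day 7 the family took a larger share of all counts than in uninjured libraries. The share was 0.963%, 1.25% and 1.09% in uninjured replicates 1 to 3, 1.44% and 1.26% at day 3, and 1.79%, 1.48% and 1.42% at day 7. The 95% Clopper-Pearson intervals of these shares are at most 0.02 percentage points wide and cover counting error only, since reads without molecular identifiers are not independent molecules. Group means were 1.10% ± 0.142 (SD, n = 3), 1.35% ± 0.1253 (n = 2) and 1.56% ± 0.198 (n = 3). All wounded libraries lay above all uninjured ones, day 3 replicate 2 by little, and this difference was not tested. On the TMM scale, which allows for other changes in the composition of the libraries, the groups overlapped. Summed CPM was 10160, 13550 and 12400 in uninjured libraries, 15700 and 12920 at day 3, and 13700, 12870 and 15010 at day 7. Uninjured replicate 1 had the lowest CPM of all 8 libraries for 66 of the 77 members, and day 3 replicate 1 the highest for 37. Within a group, the median over members of the coefficient of variation was 17.4% in uninjured, 12.9% in day 3 and 8.2% in day 7 libraries.

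**Figure D1:**
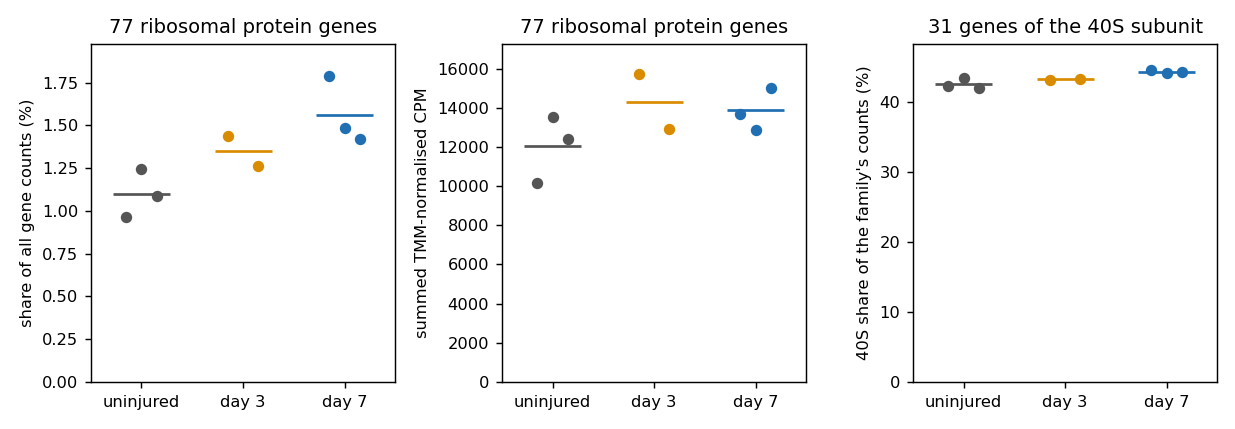
Points are libraries and bars are group means of the share of all gene counts in the 77 genes (left, %), their summed TMM-normalised CPM (centre) and the part of the family's counts in 40S genes (right, %). The share separates day 7 (1.42% to 1.79%) from uninjured libraries (0.963% to 1.25%), whereas summed CPM overlaps between them.

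Per kilobase of merged exon, levels in uninjured libraries differed widely between members. Merged exons join all annotated exons of a gene and need not have the length of its mRNA. Their length was 383 bases for Rpl36 and 6270 for Rps15a, and its part in the order below was not tested. Without division by length the order differs, with Rplp2 at 630.9 ± 105.4 CPM and Rplp1 at 227.5 ± 43.2 CPM. Rplp1, an acidic protein of the stalk that recruits elongation factors, was highest at 456 ± 86.6 CPM per kilobase (SD, n = 3). Rps29 (355.5 ± 42.7), Rpl38 (351.9 ± 55.0), Rps15 (347.8 ± 51.7) and Rpl41 (309.4 ± 38.2), all small proteins, followed with spreads that overlap. The other stalk protein Rplp2 was at 304.5 ± 50.9 and their anchor Rplp0 at 137.4 ± 27.8 CPM per kilobase. The lowest values were those of Rps10 (1.83 ± 1.13), Rpl24 (5.61 ± 1.03), Rpl13a (6.03 ± 1.71), Rps15a (10.8 ± 3.08) and Rpl23a (11.7 ± 3.06). How reads that match several genes were counted is not given in the sources used here, and 298 rows of the table are pseudogenes named after a member. Reads of a member and of its near-identical copies cannot be told apart here, and their part in these low values was not tested. The pseudogene rows together held 0.129% to 0.209% of counts in uninjured, 0.166% to 0.181% in day 3 and 0.172% to 0.202% in day 7 libraries.

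At day 7 against uninjured skin, most members were slightly higher but few passed the test. Rps12 was called higher and Rpl10a lower, which is 1.3% of the members in each direction, against 5.9% of all genes tested called higher and 1.77% called lower. At an unadjusted p under 0.05, 11 members were higher (14.3%, against 17.2% of all genes) and 1 was lower (1.3%, against 9.5%). DESeq2 called 3 members higher, Rps12, Rps24 and Rpl17, and Rpl10a lower, against 10.1% and 3.84% of all genes. The median log2 fold change of the members was 0.28 (middle 50% from 0.14 to 0.42), and that of all genes 0.04. Of the 77 members, 67 had a positive log2 fold change (87%), against 52.1% of all genes. All 3 day 7 libraries lay above all 3 uninjured ones for 29 members (37.7%, against 16.7% of all genes) and below them for 1 (1.3%, against 13.5%). The spread of log2 fold changes among members (SD 0.285) was smaller than that among all genes (SD 1.20). All genes tested include many with far fewer counts than most members, and the part of count level in this difference was not tested. Without uninjured replicate 1, the library with the lowest levels, the median was 0.16 with 60 members positive and 0 called in either direction. Scaling by library totals alone gave a median of 0.59, while the median of all genes moved to 0.35. In that fit 15 members were called higher (19.5%, against 6.96% of all genes) and 0 lower (0.992% of all genes).

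**Figure D2:**
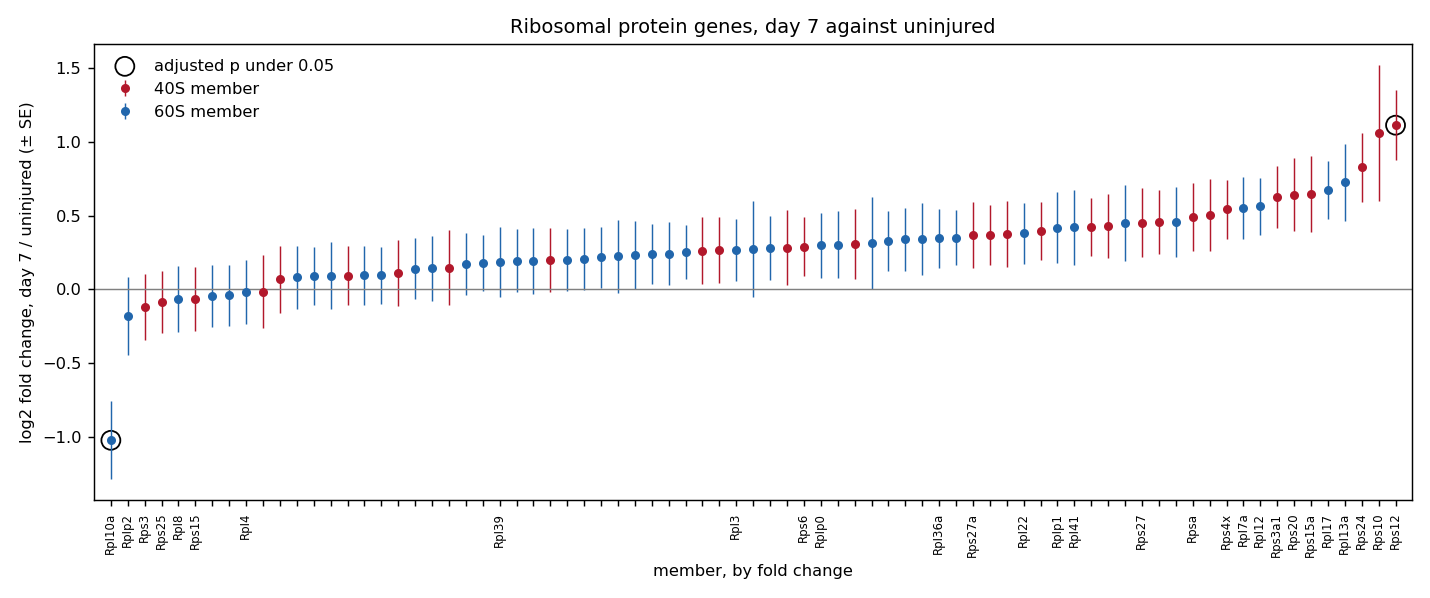
Each point is a member, with its log2 fold change at day 7 against uninjured (vertical, ± SE), ordered by that value and coloured by subunit, with names only for members described in the text; circles mark adjusted p under 0.05. Rps12 (1.11) and Rpl10a (-1.02) lie at the ends, and 67 of 77 points are above 0.

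The 31 proteins of the small subunit had a median log2 fold change of 0.37 at day 7, and the 46 of the large subunit one of 0.24. In each subunit 87% of members were positive (27 of 31 and 40 of 46). At an unadjusted p under 0.05, 7 members of the small (22.6%) and 4 of the large subunit (8.7%) were higher, against 17.2% of all genes. The 40S part of the family's counts was 42.3%, 43.5% and 42.0% in uninjured libraries, 43.2% and 43.4% at day 3, and 44.6%, 44.2% and 44.3% at day 7. Values of the day 7 libraries were above those of every other library, by less than 1 percentage point from the nearest. The large-subunit member Rpl10a enters this part through the family's total. Its own mean share of the family's counts was 2.45% in uninjured, 0.857% in day 3 and 1.02% in day 7 libraries. How much of the change in the 40S part goes with Rpl10a was not tested. The difference between subunits was not tested.

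Among small-subunit members, Rps12, a protein of the head of the subunit, was at 45.3, 77.5 and 53.4 CPM in uninjured libraries, 103 and 85.7 at day 3, and 135.3, 118.8 and 128 at day 7. The 3 groups did not overlap, with day 3 between the others. At day 7 it rose 2.16-fold (log2 fold change 1.11, SE 0.24; edgeR adjusted p = 0.0210). In a fit scaled to the members themselves, where 0 is the shift of the family, its log2 fold change was 0.85 ± 0.22 (adjusted p = 0.0409). That call was lost with the replicate number as a block and in 6 of the 8 fits that leave out 1 library, those of uninjured replicates 1 and 3, both day 3 replicates and day 7 replicates 1 and 2. In that fit 1.3% of the members were called in each direction, against 3.88% of all genes higher and 4.79% lower. Its part of the family's counts went from 0.445%, 0.572% and 0.431% in uninjured to 0.988%, 0.923% and 0.853% in day 7 libraries. In the fit with TMM factors, Rps12 lost its call without uninjured replicate 1 (adjusted p = 0.105) or 3 (0.0836) and without day 7 replicate 1 (0.0631) or 2 (0.0613), and its log2 fold change then lay between 0.95 and 1.18. In the deposited table Rps12 (ENSMUSG00000061983.8) spans chromosome 10 from 23661081 to 23663173 on the minus strand, in coordinates whose build is not settled.

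Rps24, needed for maturation of small-subunit RNA, was at 113.2, 152.6 and 121.5 CPM in uninjured, 250.9 and 159.5 at day 3, and 249.5, 213.2 and 224.7 at day 7. Its day 7 libraries all lay above its uninjured ones, with a log2 fold change of 0.83 ± 0.24 and an edgeR adjusted p of 0.0564. DESeq2 gave an adjusted p of 0.0181 and edgeR without day 7 replicate 3 one of 0.0381. Rps3a1, of the platform of the subunit, was at 104.9, 147.1 and 143.7 CPM in uninjured, 139.2 and 132.4 at day 3, and 207.8, 186.3 and 217.5 at day 7. Its day 7 libraries lay above all others, with a log2 fold change of 0.63 ± 0.21 against uninjured (edgeR adjusted p = 0.0908) and of 0.59 ± 0.24 against day 3 (edgeR adjusted p = 0.422). Rps20 (0.64), Rps15a (0.65) and the X-linked Rps4x (0.54) had adjusted p-values of 0.128, 0.137 and 0.116 at day 7. Rps10, a target of ribosome quality control, had a log2 fold change of 1.06 ± 0.46 from the low levels of 3.78, 7.04 and 1.88 CPM in uninjured to 11.2, 7.47 and 8.504 CPM in day 7 libraries (adjusted p = 0.169). These levels come close to each other between the groups, at 7.04 and 7.47 CPM.

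Other small-subunit members of the named set did not pass the test. Rps6, the substrate of S6 kinases, was at 88.3, 83.5 and 104.8 CPM in uninjured and 115.9, 99.0 and 123.3 in day 7 libraries (0.29 ± 0.20, adjusted p = 0.362). Rpsa, also known as a laminin receptor, had a log2 fold change of 0.49 ± 0.23 (adjusted p = 0.198), Rps27 one of 0.45 ± 0.24 (0.240) and Rps27a, made as a fusion with ubiquitin, one of 0.37 ± 0.22 (0.301). The lowest values of the subunit were those of Rps3, at the mRNA entry channel (-0.12 ± 0.22), Rps25 (-0.09 ± 0.21) and Rps15 (-0.06 ± 0.22). The libraries of both groups overlapped for these 3.

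Of all members, Rpl10a had the lowest log2 fold change at both times. It encodes L10a, part of the mobile stalk beside the exit site for tRNA, and is the protein that the reporter tags. Its level was 287.1, 261.3 and 322.8 CPM in uninjured libraries, 99.3 and 139.8 at day 3, and 118.4, 114.6 and 195.5 at day 7. Every wounded library was below every uninjured one, and day 7 replicate 3 was the highest of the wounded. At day 7 Rpl10a fell to 0.492 of its uninjured level (log2 fold change -1.02, SE 0.26; edgeR adjusted p = 0.0410). In the fit scaled to the members its log2 fold change was -1.34 ± 0.28 (adjusted p = 0.0218), and 4 of the 8 fits that leave out 1 library (uninjured replicates 1 and 3, day 7 replicates 1 and 2) did not keep that call. At day 3 its log2 fold change was -1.28 ± 0.31, with an unadjusted p of 0.00151 and an edgeR adjusted p of 0.181, and DESeq2 gave an adjusted p of 0.00992. Rpl10a made up 2.83%, 1.93% and 2.60% of the family's counts in uninjured libraries, 0.633% and 1.082% at day 3, and 0.865%, 0.890% and 1.30% at day 7. By that mean share it ranked 8 of 77 in uninjured, 45 at day 3 and 40 at day 7. The next lowest member at day 7, Rplp2, had a log2 fold change of -0.18.

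The day 7 call of Rpl10a was lost with library totals (log2 fold change -0.75, adjusted p = 0.0519), without uninjured replicate 1 (adjusted p = 0.126), 2 (0.0676) or 3 (0.129), and without day 7 replicate 1 (0.145) or 2 (0.171). Its log2 fold change stayed between -1.32 and -0.87 in the 8 fits that left out 1 library. Over 17 alternatives its adjusted p ranged from 0.00429 to 0.171. Reads of the reporter's own L10a sequence and reads of the native gene cannot be told apart in these counts, and how much each gave was not tested. Adipoq, whose promoter drives the recombinase, was at 4908, 5404 and 5401 CPM in uninjured, 3329 and 3837 at day 3, and 1803, 2789 and 5177 at day 7. In the deposited table Rpl10a (ENSMUSG00000037805.16) spans chromosome 17 from 28547445 to 28550007 on the plus strand.

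**Figure D3:**
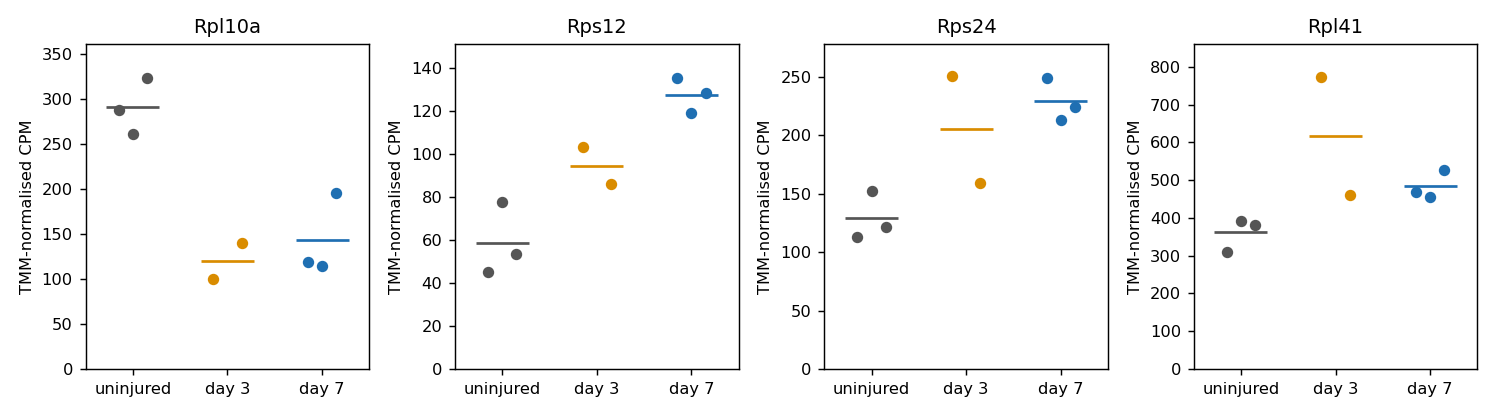
TMM-normalised CPM (vertical, from 0) of Rpl10a, Rps12, Rps24 and Rpl41 in each library (points), with group means (bars). Rpl10a is at most 195.5 CPM in the 5 wounded libraries and at least 261.3 CPM in the 3 uninjured ones, Rps12 is ordered uninjured, day 3, day 7, and Rpl41 is highest in day 3 replicate 1 at 773.4 CPM.

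At an unadjusted p under 0.05, 4 of the 46 large-subunit members were higher at day 7 (8.7%), a smaller share than the 17.2% of all genes. Rpl17, beside the tunnel through which the new chain leaves, was at 50.3, 61.7 and 57.2 CPM in uninjured, 75.9 and 61.2 at day 3, and 93.6, 89.95 and 86.7 at day 7 (0.68 ± 0.20, edgeR adjusted p = 0.0583, DESeq2 adjusted p = 0.0293). Rpl12, at the base of the stalk, had a log2 fold change of 0.56 ± 0.19 (adjusted p = 0.0974) and Rpl7a one of 0.55 ± 0.21 (0.126). Rpl13a, which also has a role in silencing of inflammatory mRNAs, went from 10, 16.8 and 11.4 to 21.4, 21.5 and 20.8 CPM (0.73 ± 0.26, adjusted p = 0.110). For all of these the day 7 libraries lay above the uninjured ones.

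None of the 3 P-stalk proteins Rplp0, Rplp1 and Rplp2 passed the test, and their log2 fold changes at day 7 had both signs. Rplp2 was at 509.2, 690.2 and 693.2 CPM in uninjured, 1021 and 628.3 at day 3, and 531.2, 503.9 and 635.1 at day 7. It had the highest mean share of the family's counts in each group, 5.23%, 5.68% and 4.01%, and a log2 fold change at day 7 of -0.18 ± 0.27 (adjusted p = 0.689). Rplp1 was at 189.2, 274.3 and 219.1 CPM in uninjured and at 314.3, 287.4 and 310.5 in day 7 libraries, which did not overlap (0.42 ± 0.24, adjusted p = 0.283). Rplp0 had a log2 fold change of 0.30 ± 0.22 (adjusted p = 0.405). Near the catalytic centre, Rpl3 had one of 0.27 ± 0.21 (0.425). The tunnel proteins Rpl4 and Rpl39 had values of -0.02 ± 0.22 (0.963) and 0.19 ± 0.24 (0.639). Rpl36a (0.35 ± 0.20, 0.286) and Rpl22 (0.38 ± 0.21, 0.264) did not pass either, and neither did Rpl8, with -0.06 ± 0.22 (0.873).

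At day 3 against uninjured skin no member was called in either direction by edgeR, against 0.0107% of all genes higher and 0% lower. At an unadjusted p under 0.05, 7 members were higher (7.57% of all genes) and 1, Rpl10a, was lower (5.39%). DESeq2 called 0 members higher (1.74% of all genes) and Rpl10a lower (0.568%). The median log2 fold change was 0.28, against 0.02 for all genes, and 73 of 77 members were positive (94.8%, against 51.1%). The day 3 and day 7 comparisons share the uninjured libraries, so their values are not independent. The highest values were those of Rpl41 (0.77 ± 0.28, adjusted p = 0.301), Rpl24 (0.71 ± 0.36, 0.434), Rps12 (0.68 ± 0.26, 0.316), Rps24 (0.67 ± 0.26, 0.321) and Rpl12 (0.63 ± 0.21, 0.276). Low values after that of Rpl10a were those of Rpl4 (-0.10), Rpl8 (-0.02) and Rpl3 (0.00). The median was 0.11 without day 3 replicate 1 and 0.18 without uninjured replicate 1.

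The 2 day 3 libraries stood apart from each other among members with short coding sequences. Rpl41, the shortest with 75 coding bases, was at 310.3, 392.2 and 381.7 CPM in uninjured libraries, 773.4 in day 3 replicate 1 and 461 in replicate 2. The next shortest, Rpl39 (153 bases), was at 256 and 173.9 CPM in the day 3 libraries, and Rps29 (168 bases) at 452.6 and 308.7. Against the uninjured geometric mean, the 15 members with the shortest coding sequences (75 to 345 bases) had a median log2 ratio of 0.69 in day 3 replicate 1 and 0.13 in replicate 2. The 15 longest (651 to 1257 bases) had medians of 0.19 and 0.11. Rpl4 and Rpl3, the longest of all with 1257 and 1209 bases, had log2 ratios of -0.19 and -0.11 in replicate 1 and of -0.01 and 0.13 in replicate 2. Across the 77 members, the log2 ratio correlated with log2 coding length at r = -0.48 (rho = -0.49) in replicate 1 and at -0.10 (rho = 0.00) in replicate 2. In the day 7 libraries r was between -0.12 and -0.06. These correlations are across genes, which share a library and are not independent replicates. Without Rpl10a, r was -0.56 in replicate 1. Day 3 replicate 1 was also the library with the fewest counts, 5308959, and the part of its depth or RNA quality in this relation was not tested.

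**Figure D4:**
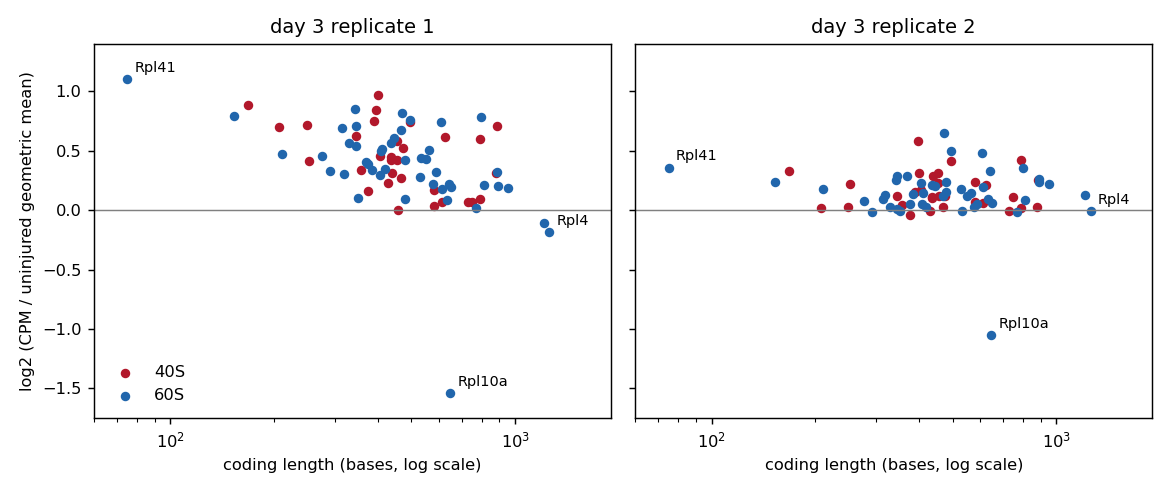
Log2 ratio of each member's CPM to its uninjured geometric mean (vertical) against coding length in bases (horizontal, log scale) in day 3 replicates 1 (left) and 2 (right). Short members lie higher in replicate 1 (r = -0.48 over 77 members), and no such slope appears in replicate 2 (r = -0.10).

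At day 7 against day 3, edgeR called 0 members in either direction (0.0643% of all genes higher, 0.0214% lower). At an unadjusted p under 0.05, 1 member was higher, Rps3a1 (6.37% of all genes), and 0 were lower (4.64%). DESeq2 called 0 in both directions (0.788% and 0.418% of all genes). The median log2 fold change was -0.02, against 0.08 for all genes, with 37 of 77 members positive. With library totals the median was 0.24, against 0.34 for all genes. Rps10 (0.71), Rps3a1 (0.59), Rps20 (0.49), Rps12 (0.43) and Rpl17 (0.40) were highest. Rplp2 (-0.57), Rpl24 (-0.44), Rps29 (-0.37), Rpl41 (-0.35) and Rps15 (-0.34) were lowest. Without day 3 replicate 1 the median was 0.13 and the value of Rpl41 was 0.06.

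Of the paralogues, Rpl3l was called. It encodes a form of L3 known from skeletal and heart muscle. Its level was 35.6, 13.2 and 14.3 CPM in uninjured libraries, 6.38 and 10.3 at day 3, and 2.49, 3.27 and 3.23 at day 7. The 3 groups did not overlap, and at day 7 it fell by 2.80 ± 0.44 on the log2 scale (edgeR adjusted p = 0.00732; 3.4e-10 to 0.0346 over 17 alternatives). Markers of skeletal muscle moved with it: 13 of 16 were called lower at day 7 and 0 higher, and their summed level was 5792 to 12150 CPM in uninjured, 3591 to 5986 at day 3 and 1070 to 2036 at day 7. The part of muscle RNA in the Rpl3l values was not tested. Rpl3 itself was at 88.6, 115.9 and 129.1 CPM in uninjured and 141.6, 129.5 and 131 in day 7 libraries.

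The other paralogues were not called in any comparison. Rpl39l, a form of L39 known from male germ cells, was at 127.3, 164.8 and 183.8 CPM in uninjured, 71.8 and 162.1 at day 3, and 103.1, 82.5 and 120.5 at day 7. Day 7 libraries all lay below uninjured ones (-0.64 ± 0.30, adjusted p = 0.203). Rps27l, a p53-responsive form of S27, was at 489.7, 598.3 and 494.8 CPM in uninjured and 403.6, 398.9 and 526.7 in day 7 libraries (-0.25 ± 0.25, adjusted p = 0.535). Per kilobase Rps27l was counted far above Rps27 in uninjured libraries, at 646.6 ± 75.1 against 74.6 ± 20.9 CPM per kilobase. Rps27rt and a pseudogene row are also named after Rps27. How reads that match several genes were counted is not given, and the part of such reads in this difference was not tested. Rpl22l1, which can stand in for Rpl22, was at 21.7, 31.4 and 21.4 CPM in uninjured and 28.9, 30.1 and 29.9 at day 7 (0.25 ± 0.23, adjusted p = 0.494). Rpl7l1 (-0.34, 0.433), Rpl36al (-0.16, 0.687) and Rps27rt (0.59, 0.171) did not pass at day 7. Rpl10l had no count in 7 libraries, had a level of 0.226 CPM in day 7 replicate 1 and was not tested.

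Other lists of translation genes had medians on both sides of 0 at day 7. For the 77 tested proteins of the mitochondrial ribosome, the median log2 fold change at day 7 was -0.37, with 1 positive. edgeR called 0 of them (5.9% of all genes higher and 1.77% lower). At an unadjusted p under 0.05, 13 were lower and 0 higher (9.5% and 17.2% of all genes). DESeq2 called 3 lower (3.84% of all genes). Without day 7 replicate 3, edgeR called 20 lower and the median was -0.57. Over all genes that fit called 1439 of 18469 lower, against 330 of 18656 with all libraries. With library totals the list of the mitochondrial ribosome had a median of -0.11, with 24 positive and 1 called lower (0.992% of all genes). Mrps18a, of its small subunit, was at 180.8, 206.3 and 213.6 CPM in uninjured and 73.0, 96.6 and 143.1 in day 7 libraries (-0.94 ± 0.26, adjusted p = 0.0520). At day 3 the median of the mitochondrial list was 0.16 with 57 positive, and -0.09 without day 3 replicate 1. At day 7 against day 3 it was -0.53, with 0 called by edgeR or DESeq2. In that comparison 32 were lower at an unadjusted p under 0.05 (4.64% of all genes).

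Of 25 other RNAs with a TOP motif, Gas5, a non-coding host of small nucleolar RNAs, rose at day 7 (67.6, 118.6 and 74.1 to 194, 163.9 and 139.3 CPM, log2 fold change 0.93 ± 0.26, edgeR adjusted p = 0.0497) and 0 fell, with a median of 0.11 for the list. With upper-quartile scaling 0 of this list were called, and with library totals 4 were called higher, 24 were positive and the median was 0.41. Tpt1 (0.59, adjusted p = 0.116), Npm1 (0.54, 0.128) and Pabpc1, the poly(A)-binding protein (0.62, 0.130), did not pass. The elongation factors Eef1a1 and Eef2 had log2 fold changes of 0.22 ± 0.23 and 0.15 ± 0.22. In the list of ribosome assembly and rRNA synthesis, 1 of 35 fell at day 7, Nhp2, a protein of the pseudouridylation complexes (-0.79 ± 0.20, adjusted p = 0.0404), and the median of that list was -0.07. For both lists the share over all genes tested was 5.9% called higher and 1.77% called lower. With upper-quartile scaling or library totals, 0 of the assembly list were called lower and 1 higher. Nop56, of the methylation complexes, had a value of 0.94 ± 0.26 (adjusted p = 0.0516).

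Of 23 genes of mTORC1 and the control of TOP mRNAs, Ddit4, an inhibitor of mTORC1 induced by stress, rose (1.22, 2.76 and 1.59 to 15.7, 13.7 and 3.83 CPM, log2 fold change 2.54 ± 0.56, adjusted p = 0.0232). Akt1s1, an inhibitory subunit of mTORC1, fell (-0.97 ± 0.25, adjusted p = 0.0414), and the median of the list was -0.06. With library totals, 0 of this list were called lower and 2 higher. Larp1 had a log2 fold change of 0.06 ± 0.23 and Mtor one of -0.06 ± 0.29. None of the 22 initiation factors was called at day 7 by edgeR. Of them, 0 were higher and 3 lower at an unadjusted p under 0.05 (17.2% and 9.5% of all genes). DESeq2 called 1 lower (3.84% of all genes), and the median of the initiation factors was -0.28 (0.02 with library totals). In the list of ribosome rescue and stress, Gtpbp2, which helps to free stalled ribosomes, rose (1.29 ± 0.32, adjusted p = 0.0350), 0 of the 13 tested fell and 12 did not pass. Beside these lists, edgeR called 5.9% of all genes tested higher at day 7 and 1.77% lower. In each of 4 fits, those that omit uninjured replicate 1, uninjured replicate 3, day 7 replicate 1 and day 7 replicate 2, edgeR called 0 genes of the TOP, assembly, mTORC1 and rescue lists. The TOP and assembly lists also had 0 called without either day 3 replicate. With library totals the medians of the assembly, mTORC1 and rescue lists at day 7 were 0.27, 0.26 and 0.20. At day 3 the assembly list had a median of -0.27 with 3 of 35 positive and the initiation list one of -0.32 with 3 of 22 positive. edgeR called 0 genes of these lists at day 3, and DESeq2 called 0 of both. In that comparison 4 of the assembly and 2 of the initiation list were lower at an unadjusted p under 0.05 (5.39% of all genes).

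**Figure D5:**
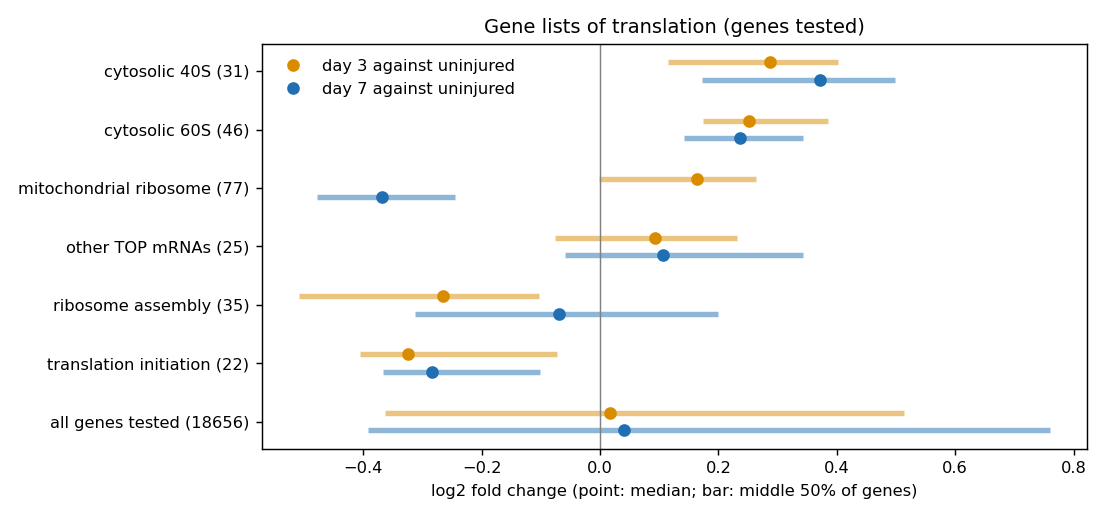
Median log2 fold change (points) and middle 50% of genes (bars) of each list at day 3 and day 7 against uninjured, with the number of genes tested in brackets. At day 7 the cytosolic subunits lie at 0.37 and 0.24 and the mitochondrial ribosome at -0.37; both comparisons share the uninjured libraries.

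Markers of several other cell types were higher at day 7. At day 7 edgeR called 11 of 15 fibroblast and matrix markers higher, 11 of 14 endothelial, 11 of 13 tested luminal epithelial and 7 of 15 macrophage markers, with none of these lower. When 1 library was left out, these counts were 6 to 12 for matrix, 1 to 13 for endothelial, 4 to 11 for luminal epithelial and 1 to 11 for macrophage markers. The lowest came from the fits that omit uninjured replicate 1, uninjured replicate 3, day 7 replicate 1 or day 7 replicate 2, and over all genes those 4 fits called 238 to 314 higher, against 1101 with all libraries. Of 13 keratinocyte and 5 tested T, B and NK cell markers, edgeR and DESeq2 called 0, and 0 had an unadjusted p under 0.05. Csn3, a milk protein, was at 0 CPM in uninjured libraries, at 26.1 and 0.428 CPM at day 3 and at 14.8, 21.7 and 32.9 CPM at day 7. Summed levels of the matrix markers were 3997 to 4802 CPM in uninjured, 3148 to 7765 at day 3 and 12220 to 19610 at day 7. Those of the macrophage markers were 150.2 to 340.6, 352.1 to 1321 and 600 to 1363 CPM, and those of the luminal epithelial markers 63.2 to 130.4, 485.1 to 2271 and 834.6 to 1693 CPM. Endothelial markers summed to 89.2 to 181.9, 277 to 313.8 and 149.5 to 611.1 CPM, and keratinocyte markers to 2027 to 4153, 1517 to 6157 and 2228 to 7902 CPM. Of 18 adipocyte markers 1 was called lower, the lipase Pnpla2, and the median of the list was -0.53. Without day 7 replicate 3, 9 were called lower and the median was -0.85. That fit called 1439 of all 18469 genes tested lower, against 330 of 18656 with all libraries. Of the adipocyte markers, 0 were called without any 1 of the other day 7 or the uninjured replicates. With library totals the median was -0.25, with 2 called lower and 1 higher. Their summed level was 116700 to 144800 CPM in uninjured, 116800 to 146600 at day 3 and 69680 to 155800 at day 7. The part of these cell types in the values of the ribosomal protein genes was not tested.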

How the data were processed

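RNA bound to GFP-tagged ribosomes was measured in 8 libraries made from 20 ng of RNA, per the labels' protocols. The authors deposited whole-number counts of reads for each gene, which come from featureCounts, per the file headers. The submitters' processing notes name STAR 2.7.10b, featureCounts 2.0.8, DESeq2 and the build mm10. Only 1543 of 52147 identifiers found in GENCODE M21 start at the same coordinate there, so the table's build is not settled. Symbols were matched for 52147 of 53700 rows, and unmatched rows held 0.0439% to 0.445% of a library's counts. The sources used here do not give the strand setting or how reads with several matches were counted.

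Library totals were 5308959 to 17751689. After a filter (minimum count 10), edgeR 4.0.16 (R 4.3.3) fitted 1 mean per group to all 8 libraries, which leaves 5 residual degrees of freedom, with two-sided quasi-likelihood tests of 3 contrasts. The common biological coefficient of variation was 35.8%. DESeq2 1.42.0, other scalings and filters, a replicate block and leaving out each library were alternatives. Coding lengths are those of principal isoforms in GENCODE M21, without the stop codon. The procedure was tested on simulated data. Genes were named when called, when among the 5 highest or lowest members by fold change or by level, or when in a fixed set, with up to 4 genes of each other list. The members and lists were chosen with earlier results of these data known. The relation to coding length, and Eef1a1, Eef2, Larp1, Mtor, Csn3 and Adipoq, were chosen after values were seen. Leaving out libraries or changing the scaling for the other lists was also added after seeing the data. The result of 1 member is not reported here by name.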

Additional observations from a re-analysis of the deposited data

How the results depend on the processing

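Counts of called members at day 7 were few and moved with the processing. The count higher (1) was 15 with library totals, 3 with DESeq2, 3 with a minimum count of 50, 3 with only both groups compared, and 0 to 3 when 1 library was left out. The count lower (1) was 0 with library totals and 0 to 1 when 1 library was left out. Scaled to the members, the count higher (1) was 0 with the replicate block and 0 to 1 when 1 library was left out, and the count lower (1) was 0 to 1. At day 3 the count lower (0) was 1 with DESeq2 and 1 without a filter, and 1 without a filter when scaled to the members. With library totals the members' median log2 fold change was 0.585 at day 7 against uninjured, and at day 7 against day 3 it turned from -0.024 to 0.244. With paralogues and pseudogenes added, the share of counts was 1.341% in uninjured, 1.611% at day 3 and 1.833% at day 7. Among named genes, Rps27l turned to 0.038 with library totals at day 7. Without 1 library, log2 fold changes at day 3 lay between -0.011 and 0.675 for Rplp2, -0.015 and 0.512 for Rpl36al and -1.165 and 0.026 for Rpl39l, and for Rpl41 at day 7 against day 3 between -0.671 and 0.06. The cause of these changes was not tested. Fits that left out 1 library also rested on fewer libraries, and the part of that was not tested either.

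Deviations from the group means were correlated over all genes between libraries of different groups. Correlations ran from -0.089 to 0.218 for libraries of the same number and from -0.233 to 0.213 for others. Not every library correlated best with its own number. Removing the means of such small groups ties these values together, so they cannot show whether libraries were paired. The numbers are taken as names only, which these values do not settle. With the replicate block the members' median at day 7 was 0.277, with Rps12 and Rpl10a called as before, but scaled to the members the block left 0 called higher.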
